A study of Mus musculus with 6 samples.

Results

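The BCL2 family of survival and death genes was measured in the hearts of irisin knockout mice and of their wild type controls. Members were the rows of the deposited table whose platform annotation carries 1 of 10 symbols: the survival genes Bcl2, Bcl2l1 and Mcl1, the effectors Bax and Bak1, and the BH3-only genes Bcl2l11, Bad, Bid, Bbc3 and Pmaip1. A row was found for 9 of the 10, among 23185 genes with a named row. Bax had no row under its name and was not analysed here. The wild type group comprised 3 arrays from FVB mice, an inbred strain. The knockout group comprised 3 arrays from FVB mice of an irisin knockout line made by injecting zygotes with Cas9 mRNA and 5 guide RNAs, which acts in the whole animal. Controls were littermates, all animals ate standard chow with 10% fat for 24 weeks, and 1 Affymetrix array was run per sample. The labels name the material as cardiomyocytes in some fields and as myocardium in another, give neither sex nor the number of founder animals, and do not settle whether each array is a different animal; if not, the p-values reflect spread that could be purely technical.

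Proteins of the BCL2 family decide whether the outer membrane of the mitochondrion stays closed. Survival members bind and hold back the effectors, which otherwise form pores that release cytochrome c, and BH3-only proteins either block the survival members or switch the effectors on. In cardiomyocytes, which scarcely divide, this balance is known as a control of cell loss after ischaemia and reperfusion, the injury named in the title of the series. The comparison asked whether the messenger RNA of these genes differed between genotypes. Much of the family's control lies in phosphorylation, cleavage and protein turnover, which arrays do not measure, and the 1 value per gene does not separate splice forms such as the long and short forms of Bcl2l1.

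The targeted gene, Fndc5, which encodes the irisin precursor, read 8.42, 8.40 and 7.83 log2 units in wild type replicates 1 to 3 and 7.68, 5.49 and 5.45 in knockout replicates 1, 2 and 3. The array labelled knockout replicate 1 thus lay just below the lowest wild type array and far above the other knockout arrays. By Fndc5 alone its label is in doubt. On the genes Ppif and Vwf, which passed in the fit that counts it as knockout, it read with the other knockout arrays. For Ppif it read 10.17, beside 10.28 and 10.00 in knockout replicates 2 and 3 and 7.47 to 7.99 in wild type. For the endothelial marker Vwf it read 3.74, beside 3.87 and 4.17, and 5.74 to 5.91 in wild type. Over all named genes the lowest correlation between knockout arrays was 0.991, and between wild type arrays 0.979. Correlations between the groups were not computed, and genes that passed in such a fit are bound to separate the labelled groups. None of these values therefore settles the label of this array. The cause of the Fndc5 value of this array was not tested. Groups are named here as the labels give them, and results without this array are given with those of the alternative fits.

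In the knockout 2 of the 9 members rose, 0 fell and 7 did not pass the test. The survival gene Bcl2 was 1.64-fold higher and Bcl2l11, whose BH3-only product BIM promotes death, was 1.60-fold higher. Mcl1 (0.50 log2 units higher) and Bad (0.47 log2 units lower) missed the threshold narrowly. The test was limma's moderated linear model over all 23185 genes with Benjamini-Hochberg adjustment and a threshold of 0.05. Of all genes tested, 16.6% passed, 10.4% as higher and 6.18% as lower, so the members' share of 22.2% lay close to this background. Brighter genes passed more often, and averaged over the parts of the level range in which the members lie (10 equal parts of all genes by mean level), 21.0% of genes passed. At an unadjusted p under 0.05 limma gave 3 members higher and 2 lower (Bcl2l1 and Bad). The share of all genes at this unadjusted level was not computed, so this count and those given below have no background beside them. Values of knockout and wild type arrays did not overlap for 5 of the 9 members, 3 higher (Bcl2, Bcl2l11 and Mcl1) and 2 lower (Bad and Bbc3), against 34.1% of all genes (17.2% higher and 17.0% lower). The median difference of the 9 members was -0.08, beside -0.05 over all genes.

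Promoter sequences are shown for the pair of members that passed and the pair that missed narrowly, because the first pair rose together. Each is the 250 bases before the RefSeq start of the gene (build GRCm38.p6), 5′ to 3′ on the strand of the gene. For Bcl2 this is chr1:106714291-106714540 on the minus strand, for Bcl2l11 chr2:128125788-128126037, for Mcl1 chr3:95658471-95658720 and for Bad chr19:6941611-6941860, all 3 on the plus strand. For genes with several starts the one with the lowest coordinate was taken. Capitals mark matches, on either strand, to the GC box (GGGCGG), the CCAAT box (CCAAT) and the FOXO site (TGTTTAC). The TATA box (TATAAA) and the cAMP response element (TGACGTCA) were searched as well, and no match overlapped another in the windows printed.
Bcl2: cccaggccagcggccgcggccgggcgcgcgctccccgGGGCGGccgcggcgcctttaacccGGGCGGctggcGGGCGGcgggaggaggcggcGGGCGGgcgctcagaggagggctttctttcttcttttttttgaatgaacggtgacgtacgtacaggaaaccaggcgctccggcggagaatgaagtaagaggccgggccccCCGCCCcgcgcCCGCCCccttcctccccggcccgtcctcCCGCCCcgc
Bcl2l11: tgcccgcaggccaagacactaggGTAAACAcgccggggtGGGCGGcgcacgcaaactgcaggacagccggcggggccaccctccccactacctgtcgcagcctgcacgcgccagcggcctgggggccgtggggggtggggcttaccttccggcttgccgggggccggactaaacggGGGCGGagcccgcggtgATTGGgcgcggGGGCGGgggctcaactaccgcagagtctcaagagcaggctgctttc
Mcl1: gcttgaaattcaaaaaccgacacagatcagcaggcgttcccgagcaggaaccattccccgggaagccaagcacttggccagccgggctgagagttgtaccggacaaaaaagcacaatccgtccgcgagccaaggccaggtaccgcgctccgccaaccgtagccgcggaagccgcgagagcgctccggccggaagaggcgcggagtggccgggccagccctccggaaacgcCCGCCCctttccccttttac
Bad: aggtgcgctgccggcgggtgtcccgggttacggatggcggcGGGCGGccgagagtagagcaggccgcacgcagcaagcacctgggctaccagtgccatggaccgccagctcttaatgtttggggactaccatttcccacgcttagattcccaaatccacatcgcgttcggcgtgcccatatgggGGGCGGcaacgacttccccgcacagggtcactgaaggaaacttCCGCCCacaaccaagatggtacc

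These windows are rich in CpG. The Bcl2 window held 36 CpG dinucleotides, the Bcl2l11 window 24, the Mcl1 window 26 and the Bad window 21, against a median of 6 over 32851 promoters of the same length. Bcl2 had 7 matches to the GC box, Bcl2l11 3, Mcl1 1 and Bad 3. Across the 8 members with a promoter used here, which have 14 starts in all, 9 windows from 6 genes held a GC box, against 32.7% of all promoters. The FOXO site stood in 2 of the 14 windows, the Bcl2l11 window printed here and another of Bbc3, against 3.17% of all promoters. FOXO factors are known activators of both genes, and these letters are a description of the windows, not evidence of binding. A CCAAT box was found in 4 windows (33.8% of all promoters), and the TATA box (12.4%) and the cAMP response element (1.55%) in 0. Bcl2 and Bcl2l11 therefore shared the GC box and a high CpG content but neither the FOXO site nor the CCAAT box in these windows.

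Of the 3 survival genes only Bcl2 passed. Bcl2, the founding member of the family, which guards the mitochondrion and the endoplasmic reticulum, read 4.34, 3.78 and 4.37 log2 units on the wild type arrays (replicates 1, 2 and 3) and 4.97, 4.77 and 4.89 on the knockout arrays. All 3 knockout arrays lay above all 3 wild type arrays, and wild type replicate 2 stood lowest. Means were 4.16 ± 0.34 and 4.88 ± 0.10 (SD, n = 3), a difference of 0.72 (SE 0.17, 95% interval 0.32 to 1.11) with a limma adjusted p of 0.0253. Without wild type replicate 2 the difference was 0.52, and the gene still passed. In its part of the level range 22.3% of genes differed by at least as much in either direction. The call was lost without knockout replicate 1 (adjusted p = 0.0935), 2 (0.0663) or 3 (0.0811) and after quantile normalization (0.0521), with differences of 0.64 to 0.77 in these fits.

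Mcl1 encodes a survival protein with a short lifetime on which adult cardiomyocytes are known to depend. Its values were 7.03, 6.91 and 6.64 log2 units in wild type replicates 1 to 3 and 7.29, 7.55 and 7.23 in the knockout. The groups did not overlap, and the mean went from 6.86 ± 0.20 to 7.36 ± 0.17 (SD, n = 3). The difference of 0.50 (SE 0.15, 95% interval 0.16 to 0.84) had a limma adjusted p of 0.0516 and so did not pass. Mcl1 is among the brightest genes on the array, and bright genes were higher in the knockout in general: the brightest of the 10 parts had a median difference of 0.27. In that part 46.8% of genes differed by at least as much as Mcl1 in either direction. After cyclic loess, a scaling that evens out differences by level, its difference was 0.23 (adjusted p = 0.307), and after quantile normalization 0.29 (0.197). The gene passed after centring each array on its median (0.0261), without the dimmest 30% of genes (0.0462) and without wild type replicate 1 (0.0381).

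Bcl2l1, the gene of BCL-XL, read 5.48, 6.44 and 6.06 log2 units in wild type replicates 1 to 3 and 5.46, 5.62 and 5.00 in the knockout. Wild type replicate 1 lay inside the knockout range, and the other 2 wild type arrays lay above all 3 knockout arrays. Means were 5.99 ± 0.48 and 5.36 ± 0.32 (SD, n = 3), a difference of -0.63 (SE 0.25, 95% interval -1.21 to -0.06) with a limma adjusted p of 0.134. In its part of the level range the median difference was 0.14, and 29.3% of genes differed by at least as much as Bcl2l1 in either direction. Without wild type replicate 1 the difference was -0.89 and passed (0.0237), and in the other 13 alternative fits it lay between -0.81 and -0.41 and did not pass. The 3 survival genes thus gave 1 rise, 1 difference above 0 that did not pass and 1 difference below 0 that did not pass. Whether Bcl2 and Bcl2l1 changed unequally was not tested as a pair.

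**Figure D1:**
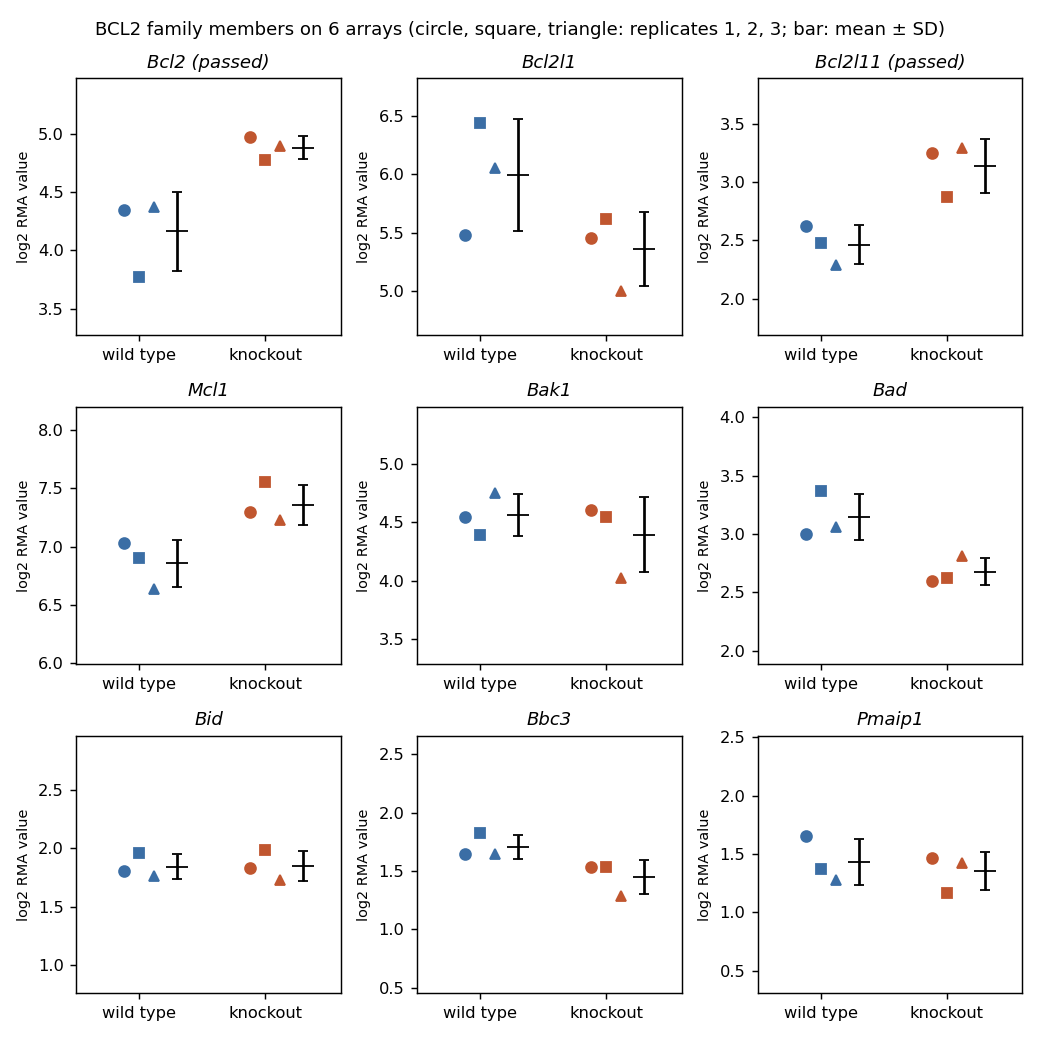
Log2 RMA value of each of the 9 members (vertical axes, each spanning the same number of log2 units) on the wild type (blue) and knockout (orange) arrays, with the mean and SD of the 3 arrays in black. Bcl2, Bcl2l11 and Mcl1 are higher on all 3 knockout arrays, Bad and Bbc3 are lower on all 3, and the other 4 members overlap.

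Of the effectors among the members, Bax and Bak1, only Bak1 had a row under its name. Rows without a symbol were left out, so this does not show that the array lacks Bax. Bak1 sits in the outer membrane and opens it once activated. Its wild type replicates 1 to 3 gave 4.54, 4.39 and 4.75 log2 units, and the knockout 4.61, 4.55 and 4.02. The groups overlapped, with knockout replicate 3 below the other 5 arrays. The difference of -0.17 (SE 0.18, 95% interval -0.58 to 0.24) had a limma adjusted p of 0.601, and without knockout replicate 3 it was 0.02. The interval leaves room for changes of up to 0.58 in size.

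Among the BH3-only genes, Bcl2l11 had the lowest p of all members. Its values were 2.63, 2.48 and 2.29 log2 units in wild type replicates 1 to 3 and 3.25, 2.87 and 3.29 in the knockout. All knockout values lay above all wild type values, with knockout replicate 2 the lowest of its group. The mean went from 2.46 ± 0.17 to 3.14 ± 0.23 (SD, n = 3), a difference of 0.67 (SE 0.15, 95% interval 0.32 to 1.03) with a limma adjusted p of 0.0195. The gene is of middling signal, at percentile 56.0 of all genes by mean level, and the median difference of its part of the level range was -0.10. Its wild type values lie close to the median level of all genes, 2.30, and replicate 3 lies just below it. Without detection calls, how far these values stand above background is not known. In that part 13.9% of genes differed by at least as much in either direction. The call held under all 3 other scalings (differences of 0.74 to 0.78) and was lost when knockout replicate 1 (adjusted p = 0.0794) or 3 (0.0785) or wild type replicate 3 (0.0611) was left out.

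Bad, a BH3-only protein that binds Bcl2l1 and is silenced by phosphorylation, read 3.00, 3.37 and 3.06 log2 units in wild type replicates 1 to 3 and 2.60, 2.62 and 2.81 in the knockout. The groups did not overlap. Means were 3.15 ± 0.20 and 2.68 ± 0.12 (SD, n = 3), a difference of -0.47 (SE 0.14, 95% interval -0.79 to -0.15) with a limma adjusted p of 0.0539. Bad passed without wild type replicate 1 (0.0442) and without the dimmest 30% of genes (0.0495), and its difference lay between -0.54 and -0.35 in all 14 alternative fits. Bad and Bcl2l11 lie in the same part of the level range, on opposite sides of its median difference of -0.10. In that part 26.0% of genes differed by at least as much as Bad in either direction. For Bad too, the distance of its knockout values from background is not known without detection calls.

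Bbc3, the gene of PUMA, a p53-induced BH3-only protein, read 1.65, 1.82 and 1.64 log2 units in wild type and 1.54, 1.53 and 1.28 in the knockout. The groups did not overlap, yet the difference of -0.25 (95% interval -0.54 to 0.04) did not pass (limma adjusted p = 0.228). It was -0.14 after centring each array on its median. Pmaip1, the gene of NOXA, which binds Mcl1 and is also p53-induced, read 1.65, 1.37 and 1.28 in wild type and 1.47, 1.16 and 1.42 in the knockout. Its groups overlapped, and the difference of -0.08 (95% interval -0.42 to 0.25, adjusted p = 0.768) changed sign under each other scaling, to between 0.01 and 0.03.

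Bid, which links death receptors to the mitochondrion once it is cleaved, read 1.80, 1.96 and 1.76 log2 units in wild type and 1.83, 1.99 and 1.73 in the knockout. The difference of 0.01 (95% interval -0.27 to 0.29) had a limma adjusted p of 0.973. Bid, Bbc3 and Pmaip1 all lay below the median level of all genes, 2.30, and without detection calls their values cannot be told apart from background. In the parts of the level range that hold them, 6.47%, 3.19% and 1.86% of genes passed. Few genes of such level passed at all, and the misses of these 3 do not show that they were alike in both genotypes.

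**Figure D2:**
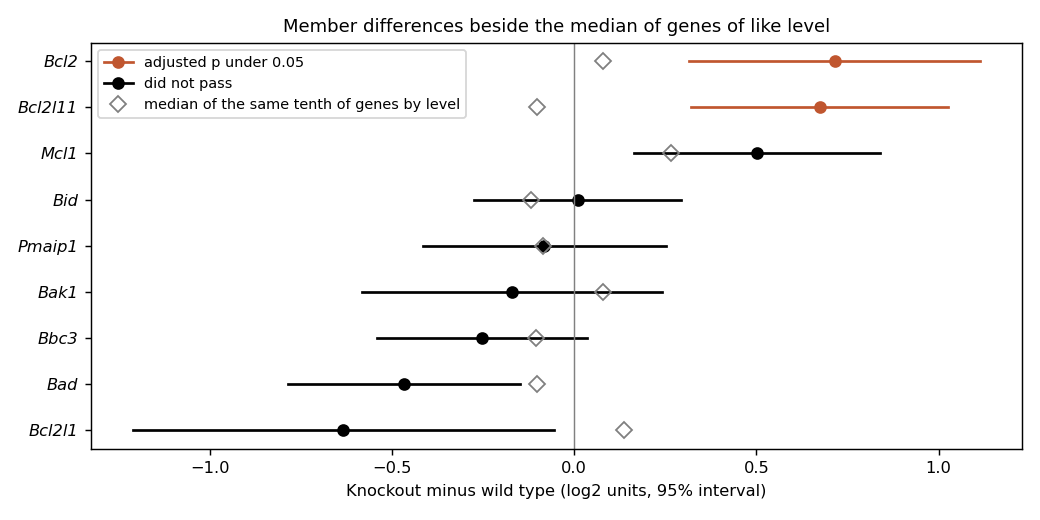
Knockout minus wild type in log2 units for each member, with its 95% interval (points and lines; orange where the limma adjusted p is under 0.05), and the median difference of the part of all genes with like mean level (open diamonds). The intervals of Bcl2 and Bcl2l11 lie to the right of their diamonds (0.08 and -0.10). Those of Bcl2l1 and Bad, which did not pass, lie to the left of theirs (0.14 and -0.10), and that of Mcl1 spans its diamond at 0.27. Among genes of like level 22.3%, 13.9%, 29.3%, 26.0% and 46.8% differed by at least as much as Bcl2, Bcl2l11, Bcl2l1, Bad and Mcl1.

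Survival genes were also set against death genes on the same array, which removes any scaling common to an array. Of 8 pairs listed, 6 could be computed, since Bax had no row under its name. The size of such a difference on any single array has no meaning between probe sets. Shifts that depend on level are not removed. The median difference of all genes was 0.27 in the part of the level range that holds Mcl1. It was 0.08, -0.10 and -0.09 in the parts that hold Bak1, Bbc3 and Pmaip1. A change in a bright gene minus a dim gene can thus arise without unequal change particular to the pair. Mcl1 minus Bbc3 went from 5.38, 5.08 and 5.00 log2 units in wild type replicates 1 to 3 to 5.76, 6.02 and 5.95 in the knockout, a rise in the mean of 0.76. Mcl1 minus Bak1 went from 2.30 ± 0.35 to 2.97 ± 0.27 (SD, n = 3) and Mcl1 minus Pmaip1 from 5.43 ± 0.10 to 6.01 ± 0.33. For these 3 pairs all knockout arrays lay above all wild type arrays, and each gave a two-sided exact permutation p of 0.1, the smallest that 3 arrays against 3 allow, or 0.2 adjusted over the 6 pairs. Since Bbc3 and Pmaip1 cannot be told apart from background, the 2 pairs that hold them set the shift of Mcl1 (0.50) against such values and say little about unequal change of the genes. Cyclic loess reduced the 3 differences to 0.39, 0.47 and 0.22, and only Mcl1 minus Bbc3 then remained without overlap.

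The pairs without Mcl1 overlapped. Bcl2 minus Bcl2l11 differed by 0.04 between genotypes (1.70 ± 0.40 in wild type and 1.74 ± 0.15 in the knockout, SD, n = 3; exact permutation p = 0.9). With the smallest possible p at 0.1, this does not show that the survival gene and the death gene rose equally. With 1 array left out the difference ran from -0.16 to 0.24, and its sign turned under quantile normalization (-0.12) and cyclic loess (-0.11). Bcl2l1 minus Bak1 differed by -0.46 (exact permutation p = 0.3) and Bcl2l1 minus Bad by -0.17 (p = 0.6 in the same exact test). No pair passed, and whether the pairs differ from each other was not tested.

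**Figure D3:**
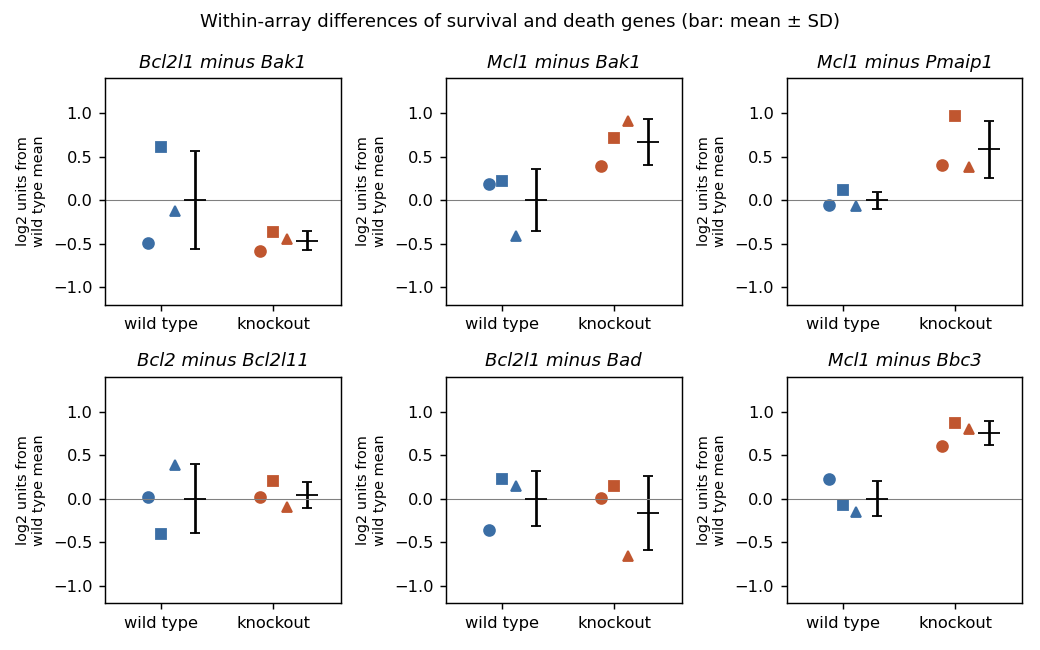
Within-array difference of a survival gene and a death gene, in log2 units from the wild type mean of that pair, for the 6 pairs (symbols as replicates 1, 2 and 3; black, mean and SD of 3 arrays). The upper middle, upper right and lower right panels, which all hold Mcl1, show no overlap of the groups, and the other 3 panels do.

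How far the members' calls rest on single arrays was followed through 14 alternative fits (13 for Pmaip1). Without wild type replicate 1, 5 members passed: Bcl2, Bcl2l11 and Mcl1 as higher and Bcl2l1 and Bad as lower. Without wild type replicate 3 only Bcl2 passed, and without knockout replicate 2 only Bcl2l11. Without knockout replicate 1 or 3 none did (limma adjusted p of the nearest member 0.0794 and 0.0785). In each of these latter fits 3 were higher and 1 lower at an unadjusted p under 0.05, a count for which the share of all genes was not computed. Over all genes, 4163 passed without wild type replicate 1, 2274 without knockout replicate 1 and 2585 without knockout replicate 3, against 3848 on all 6 arrays. Without the array labelled knockout replicate 1, whose label is in doubt by Fndc5 alone, the differences were 0.67 for Bcl2, 0.62 for Bcl2l11, 0.53 for Mcl1 (adjusted p = 0.111) and -0.43 for Bad (0.164). In that fit 1 other relative, 3 apoptosome genes, 1 inhibitor, 3 receptor genes, 2 regulators and 3 membrane partners passed, of the lists described next.

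**Figure D4:**
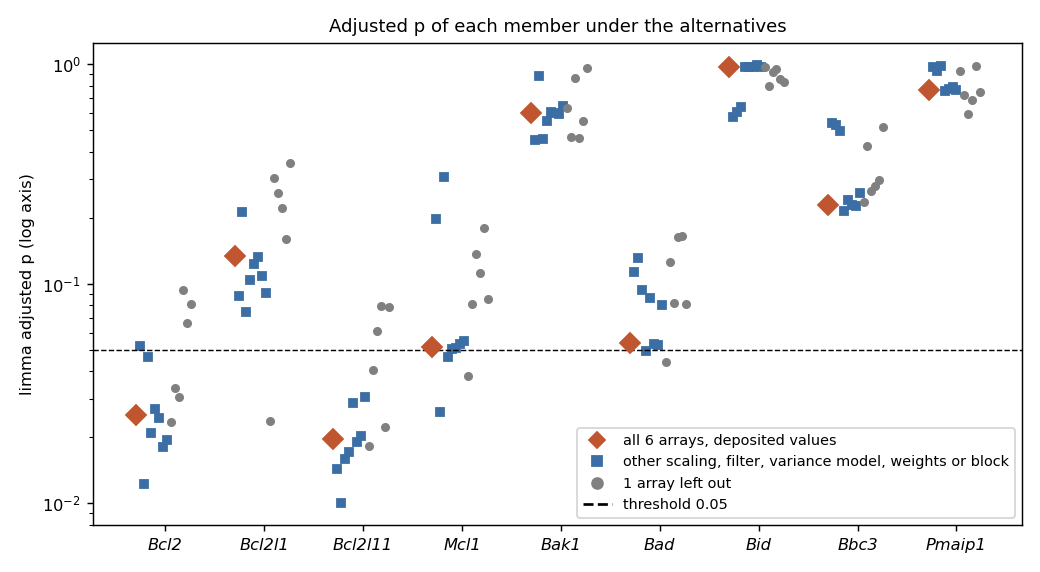
Limma adjusted p (log axis) of each member on all 6 arrays (orange diamonds), under other scalings, filters, variance models, weights or the replicate block (blue squares) and with 1 array left out (grey circles); the dashed line is the threshold of 0.05. Bcl2 and Bcl2l11 straddle the line from below, Mcl1 and Bad from above, and Bak1, Bid, Bbc3 and Pmaip1 stay above it in every fit.

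Other relatives of the family, with Bag1, Bag4 and Tmbim6, which are linked to it by function, formed a separate list of 18 genes. Of these 17 had a row under their name. In it 2 rose, 0 fell and 15 did not pass, a share of 11.8%. Over their parts of the level range 21.4% of genes passed. At an unadjusted p under 0.05 in limma 1 was lower, Bok (difference -0.33, adjusted p = 0.158). Bcl2l13, an outer membrane protein that acts as a mitophagy receptor, rose 1.93-fold, from 5.24, 5.30 and 4.90 log2 units in wild type to 6.04, 6.23 and 6.02 in the knockout (limma adjusted p = 0.00346). Bnip3l, the mitophagy receptor NIX, rose 1.79-fold, from 6.32, 6.74 and 5.85 to 7.20, 7.22 and 7.00 (adjusted p = 0.0285). Bcl2l13 passed in each alternative fit, whereas Bnip3l did not pass after quantile normalization (0.0756), after cyclic loess (0.0809), or when wild type replicate 3 (0.0535) or any 1 knockout array was left out (0.0965, 0.104 and 0.0614 for replicates 1, 2 and 3). Both are better known for removing mitochondria than for pore formation. The median of the list was -0.05. Cyclic loess gave 1 higher and 1 lower.

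In the list of the apoptosome and caspases, which act before and after the mitochondrial pore opens, 3 of the 13 genes analysed rose and 1 fell (30.8%, median 0.21). Over their parts of the level range 30.7% of genes passed. Centring gave 5 higher and 0 lower, and quantile normalization 2 and 0. Casp8, the initiator caspase of death receptors that cleaves Bid, rose 2.00-fold, from 4.63, 4.87 and 5.02 log2 units to 6.08, 5.87 and 5.57 (limma adjusted p = 0.00507). Aifm1, a flavoprotein of the space between the mitochondrial membranes, rose 1.78-fold (adjusted p = 0.0097) and Htra2, a protease of the same space, 1.42-fold (0.0212). Apaf1, the scaffold of the apoptosome, was 1.42-fold lower, at 3.79, 3.76 and 4.18 in wild type and 3.40, 3.38 and 3.43 in the knockout (0.0403). Its call was lost without any 1 of wild type replicate 3 (0.0871) and knockout replicates 1 (0.115), 2 (0.126) and 3 (0.104), after quantile normalization (0.0519), after centring (0.0835) and with a variance trend (0.0599), and that of Htra2 without knockout replicate 2 (0.0878) or 3 (0.0554) and under 2 scalings (0.0641 and 0.0648). The number of genes passing fell from 4 to 2 without knockout replicate 2.

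Of 9 genes listed as inhibitors of apoptosis 1 rose and 0 fell (11.1%), with a median of -0.23 (1 lower at an unadjusted p under 0.05 in limma). The list includes the XIAP-associated factor Xaf1, which is not itself an inhibitor. Over their parts of the level range 30.9% of genes passed. The gene that rose was Nol3, which encodes ARC, a repressor of apoptosis abundant in heart and skeletal muscle that binds BAX and caspase-8. It read 4.88, 4.70 and 4.52 log2 units in wild type and 5.79, 6.17 and 5.91 in the knockout, a 2.39-fold rise (SE 0.15 on the log2 scale, limma adjusted p = 0.00135) that passed in every alternative fit. The other 8 genes of the list, Xaf1 among them, had differences below 0, none of which passed on all 6 arrays. The lowest was Cflar, named after its values were seen, which encodes the caspase-8 inhibitor FLIP, at -0.81 (adjusted p = 0.13). Cflar passed without wild type replicate 3 (-1.13, adjusted p = 0.0363), which took the count from 1 to 2, and both quantile normalization and cyclic loess gave 1 higher and 1 lower.

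In the list of death receptors and adaptors 3 of 12 rose and 1 fell (33.3%, median -0.10), and 3 rose and 0 fell after centring. Over their parts of the level range 21.8% of genes passed. Cradd, an adaptor that joins caspase-2 to its activating platform, rose 4.20-fold, from 4.63, 4.83 and 3.72 log2 units in wild type to 6.61, 6.35 and 6.43 in the knockout (limma adjusted p = 0.00174). Fadd, the adaptor that recruits Casp8, rose 1.88-fold, from 3.72, 3.88 and 3.80 to 4.68, 5.04 and 4.42 (0.00765). Tnfsf10, the ligand TRAIL, rose 1.76-fold (0.00844), and the receptor gene Fas was 1.44-fold lower (0.0423). The 3 rises passed in each alternative fit. For Fas the threshold was missed when wild type replicate 2 (0.0723) or 3 (0.108), or knockout replicate 1 (0.0698), 2 (0.141) or 3 (0.136), was left out, after centring (0.0808) and with a variance trend (0.0589).

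Outer membrane channels and their partners formed the list with the largest share of calls among the members and the 6 lists of their partners. In it 4 of 9 were higher and 1 lower (55.6%, median 0.36). All but Tspo of the genes that passed there belong to the brightest part of the level range, where 45.7% of genes passed. Cyclic loess gave 3 higher and 2 lower. Ppif, which encodes cyclophilin D, the regulator of the permeability transition pore, rose 5.17-fold, from 7.99, 7.88 and 7.47 log2 units to 10.17, 10.28 and 10.00 (SE 0.16 on the log2 scale, limma adjusted p = 0.000192). Mtch2, an outer membrane protein known as a receptor for cleaved BID, rose 2.66-fold, from 7.19, 7.01 and 6.55 to 8.39, 8.34 and 8.25 (0.00149). Vdac2, the channel that holds BAK, rose 2.14-fold (0.00569), and Tspo, an outer membrane cholesterol-binding protein, was 1.62-fold lower (0.0266). Ppif, Mtch2 and Vdac2 passed in each alternative fit, while Tspo did not when knockout replicate 1 (0.0653) or 3 (0.0612) or wild type replicate 3 (0.0765) was left out. Omitting any 1 of these same arrays brought the count from 5 to 3.

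Regulators that act on members by transcription, phosphorylation or degradation passed for 8 of 21, 6 higher and 2 lower (38.1%, median 0.29). Of the 21, 19 lie in the 3 brightest parts, and over the parts that hold the list 36.4% of all genes passed. The split of higher against lower turned with scaling: it was 3 to 4 after both quantile normalization and cyclic loess, and 9 to 1 after centring. Atf4, a stress transcription factor, was 1.66-fold lower, at 5.13, 4.89 and 5.26 log2 units in wild type and 4.31, 4.47 and 4.31 in the knockout (limma adjusted p = 0.00757), and passed in each alternative fit. Mapk8, the kinase JNK1, rose 1.50-fold (0.0153), Pim1, a kinase that phosphorylates BAD, 1.43-fold (0.0181), and Gsk3b, a kinase that marks MCL1 for degradation, 1.50-fold (0.0187). Mapk8 lost its call without any 1 knockout array (up to 0.0619), as did Pim1 (up to 0.0724) and Gsk3b (up to 0.0754), the last 2 also without wild type replicate 3 (0.0521 and 0.0535). Gsk3b did not pass after quantile normalization (0.118) or cyclic loess (0.21) either, with differences of 0.35 and 0.28. Calls in this list numbered 2, 1 and 2 without knockout replicate 1, 2 or 3, and 5 and 3 without wild type replicate 2 or 3.

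A few regulators of direct interest to the members are named after their values were seen. Akt1, a kinase that inactivates BAD, was 1.45-fold lower (limma adjusted p = 0.0204), and Akt2 was 1.41-fold higher (0.0452). Akt1 missed the threshold once any 1 knockout array (0.0749, 0.0553 and 0.0764 for replicates 1, 2 and 3) or wild type replicate 2 (0.0522) was omitted, and after centring (0.0531). With 1 array left out, Akt2 passed only when that array was wild type replicate 1, and its difference fell from 0.49 to 0.24 after cyclic loess (adjusted p = 0.282) and to 0.27 after quantile normalization (0.227). The FOXO genes read 0.56 (Foxo3, adjusted p = 0.08) and 0.21 (Foxo1, 0.332) higher without passing.

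**Figure D5:**
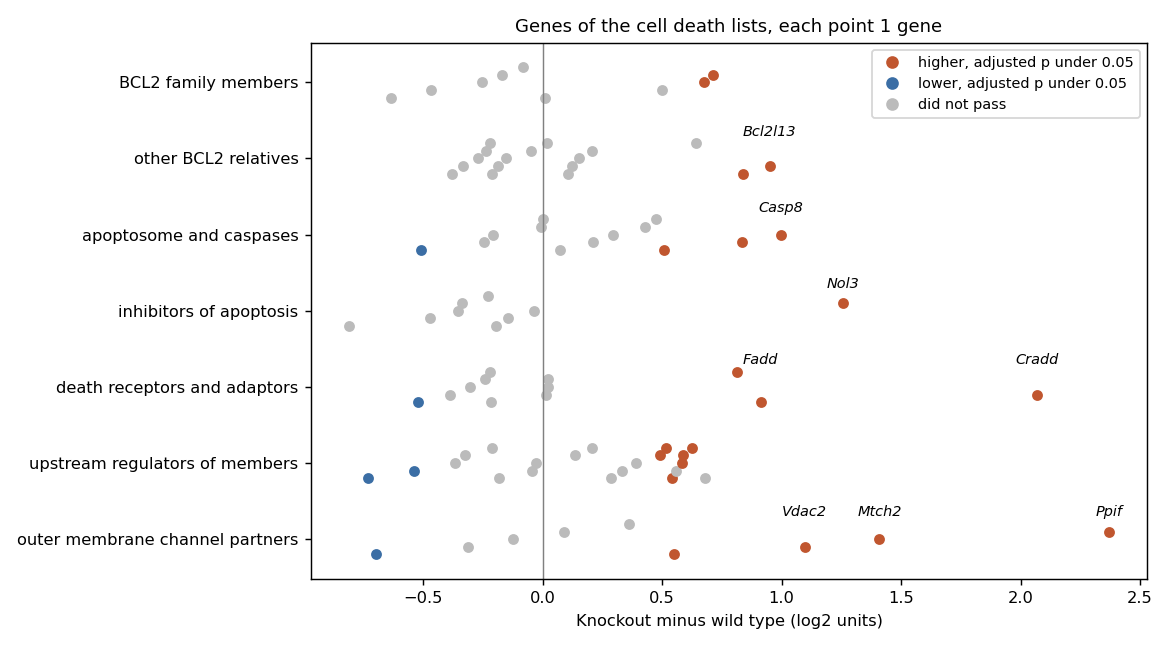
Knockout minus wild type in log2 units (horizontal axis) for every measured gene of the BCL2 family members and of 6 lists of their partners; orange and blue points passed as higher and lower, grey points did not pass, and genes that passed with a difference of at least 0.9 in size are named. The members lie within 0.72 of 0, whereas Ppif reaches 2.37 and Cradd 2.07.

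Some markers of other heart cells differed between genotypes, chiefly those of fibroblasts and of smooth muscle and pericytes. Members of the BCL2 family are widely expressed across cell types. In such bulk samples fewer cells of a type and less RNA per cell cannot be told apart. The mean over 10 cardiomyocyte markers was 10.91 to 11.37 log2 units in wild type and 11.13 to 11.28 in the knockout, with 1 marker higher, Pln, and 0 lower. Fibroblast markers fell for 7 of 10, with a mean of 6.87 to 7.81 in wild type and 6.12 to 6.27 in the knockout. The list was not uniform: the collagen genes Col3a1 (-2.85) and Col1a1 (-2.50) fell most. The 3 that did not pass were Lum (-0.33), Dcn (-0.01) and Tcf21 (0.10). Endothelial markers fell for 4 of 10 (7.12 to 7.22 against 6.46 to 6.72). Of 10 smooth muscle and pericyte markers 5 fell and 2 rose (6.25 to 7.43 against 5.51 to 5.71). The 2 that rose were Rgs5 (1.23) and Kcnj8 (1.49), and Cnn1 (-3.04) and Tagln (-2.83) fell most. Of 9 macrophage and leukocyte markers 1 fell (3.29 to 3.58 against 3.28 to 3.36), and the neutrophil marker S100a8 was among the dimmest genes on all arrays. Over the parts of the level range that hold each list, 44.3% of genes passed for fibroblast markers and 38.0% for smooth muscle and pericyte markers. For endothelial, cardiomyocyte and leukocyte markers these shares were 40.4%, 45.7% and 19.3%. The endothelial count thus lay at its background, and the cardiomyocyte and leukocyte counts below theirs. A marker of fibroblasts (Dcn, 10.04 to 10.34 in wild type and 10.18 to 10.28 in the knockout) and 1 of endothelium (Pecam1, 8.63 to 8.77 and 8.10 to 8.30) were bright. RNA of these cells was thus present beside that of cardiomyocytes. The part of cell makeup in the differences of Bcl2, Bcl2l11 and the other members was not tested. The labels name no batch of extraction or hybridisation, so such a batch cannot be told apart from genotype.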

How the data were processed

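Per the labels' protocols, TRIzol was used to extract total RNA of the 6 samples (3 per genotype), and the WT Plus kit to label it with biotin for Affymetrix arrays. Per the submitters' processing notes, the deposited log2 values are RMA summaries that the authors computed in R 3.6.0 using affy 1.61.0. How probe sets were defined, and on which build, is not given in the sources used here, and the log2 scale was inferred from RMA's usual output and the range of 0.093 to 12.96. Array medians ran from 2.13 to 2.28, and 3 arrays per group limit the precision. Of 25206 rows, 23185 carry 1 gene symbol in the platform annotation, each on a single row; the other 2021 were left out. Each gene was fitted in limma 3.58.1 (R 4.3.3; lmFit, eBayes, two-sided, genotype as the only term, no filter on dim genes) on all named rows, and the code was checked on simulated data. Differences are knockout minus wild type. Intervals are unadjusted.

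The members and lists were chosen with earlier results of these data known. Named are all members, Fndc5, and in each list the genes past the threshold, at most 4 by p. For the member with the lowest p, the 3 genes nearest in pattern are named. Alternatives were 3 other scalings (quantile, median centring, cyclic loess), a filter on the dimmest 30%, trend and robust variance models, array weights, a block for the replicate number and leaving out each array. Promoters came from RefSeq (GRCm38.p6) by symbol, for 8 of the 9 members measured. The motifs searched and the promoters printed were chosen after the values were seen. Plots used matplotlib 3.10.9 in Python 3.11.15.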

Additional observations from a re-analysis of the deposited data

How the results depend on the processing

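On all 6 arrays 2 members passed. After quantile normalization 1 did (Bcl2l11), without the dimmest 30% of genes 4 of the members kept did, and leaving out 1 array gave 0 to 5. The filter on dim genes also drops Pmaip1, and 3990 of the genes it kept passed, against 3848 of all 23185. The share of kept genes was not computed, so the count of 4 has no background beside it. In the related lists, other relatives went from 2 calls to 1 and apoptosome genes from 4 to 2 after quantile normalization, and inhibitors from 1 to 2 after it or cyclic loess. Leaving out 1 array gave 1 to 2 relatives, 2 to 4 apoptosome genes, 1 to 2 inhibitors, 3 to 4 receptor genes, 1 to 10 regulators, 3 to 5 membrane partners and 2104 to 4163 of all genes. Pairs without overlap numbered 3, but 1 after cyclic loess, and 3 to 4 with 1 array left out. Centring moved the median of all genes from -0.05 to 0.07, and gave 3162 higher and 977 lower calls in place of 2416 and 1432; cyclic loess gave 1874 and 1639. Signs turned only for differences that had not passed. Pmaip1 read 0.014, 0.029 and 0.0063 after quantile normalization, centring and cyclic loess, and Bcl2 minus Bcl2l11 -0.12 and -0.11 after quantile normalization and cyclic loess. With 1 array left out, Pmaip1 ran from -0.16 to 0.028 (above 0 without wild type replicate 1 or knockout replicate 2) and Bid from -0.060 to 0.070 (below 0 when wild type replicate 1 or 3 or knockout replicate 2 was omitted). In the same fits Bak1 ran from -0.28 to 0.016 and Bcl2l1 minus Bad from -0.35 to 0.080, both above 0 only without knockout replicate 3. Bcl2 minus Bcl2l11 ran from -0.16 to 0.24, below 0 without replicate 2 of either group. The cause of these changes was not tested.

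The groups share replicate numbers. Deviations of same-numbered arrays from their group means correlated at 0.09, 0.05 and 0.07 across genes, and those of different-numbered arrays at -0.12 to 0.05. These values are weak and do not settle whether same-numbered arrays were paired. With the replicate block 2 members passed (Bcl2 and Bcl2l11) and 3577 genes in all, against 3848 without it. Of the genes named above, Apaf1 (adjusted p = 0.0532), Fas (0.0759) and Akt2 (0.0723) did not pass with it, and Akt2 did not with array weights (0.0513).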

Other observations

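The genes whose profile over the 6 arrays was most like that of Bcl2l11 were Cdk16, a cyclin-dependent kinase gene, Nek4, a kinase gene, and St3gal6, a sialyltransferase gene. Likeness was the root mean square distance of values centred on each gene's mean, 0.0810, 0.0915 and 0.0923 log2 units. Cdk16 read 7.23, 7.18 and 6.97 in wild type replicates 1 to 3 and 7.97, 7.71 and 7.87 in the knockout. This is a description, and distances for other members were not computed.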
